A study of Rattus norvegicus with 2 samples.

Results

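Interferon-stimulated genes are the genes that cells switch on after interferon binds its receptor, and 38 of them, given as a list of gene names, were followed here in rat intracranial arterial tissue. A RefSeq accession on the array matched 34 of the 38 (Ddx58, under its RefSeq name Rig1, Samhd1, Herc6 and Xaf1 were not matched and are not analysed here), out of 15159 genes matched in all. Of the 34, 32 were well above background on both arrays, Oasl was so in the aneurysm library only, and Ifit1 was not on either, which left 33 genes with a value among 11902 genes. The study hybridised 2 one-colour Agilent arrays to ask how gene expression in an induced aneurysm compares with that in a normal wall. One library came from an intracranial aneurysm lesion 3 weeks after induction (1 array), and the other from intracranial arterial wall without treatment (1 array). The sources used here do not give strain, age, sex, the way the aneurysms were induced or how many animals stand behind each library.

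Type I interferons signal through the receptor pair Ifnar1 and Ifnar2 and the kinases Jak1 and Tyk2 to a complex that holds Stat2 and Irf9, which binds a promoter motif called the interferon-stimulated response element. Interferon gamma signals through Ifngr1 and Ifngr2, and many genes it induces carry a motif called the gamma-activated site. The products of the induced genes sense viral RNA, cut or trap it, block entry and release of virus particles, tag proteins with Isg15 or attack pathogen-holding vacuoles, and several of them in turn amplify or end the signal. Endothelial cells, smooth muscle cells, fibroblasts and macrophages can all respond.

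Some promoters of the members show the response element as letters, and 6 that hold it are printed for genes whose values the results below turn on. Of the 33 measured members, 27 had a promoter in the RefSeq table (build GRCr8, a later build than the rn4 build of the array design), as had 3 of the unmatched ones. The core searched was GAAANNGAAA on either strand (TTTCNNTTTC on the other) in the 250 bases before the start of the gene, and it is in capitals below. Ifit3 (chr1:241527076-241527325, plus strand), Ifi44l (chr2:243328473-243328722, plus strand) and Gbp5 (chr2:233910749-233910998, plus strand) had some of the highest differences. The promoter of Ifi47, whose difference was above that of Gbp5, holds no core and is not printed. Oas1a (chr12:41330216-41330465, plus strand) and Oas1b (chr12:41395853-41396102, minus strand) are near neighbours with opposite differences, and Igtp (chr10:42874797-42875046, plus strand) had probes of opposite sign. Each runs 5′ to 3′ on the gene's strand and ends at the base before the start.
Ifit3: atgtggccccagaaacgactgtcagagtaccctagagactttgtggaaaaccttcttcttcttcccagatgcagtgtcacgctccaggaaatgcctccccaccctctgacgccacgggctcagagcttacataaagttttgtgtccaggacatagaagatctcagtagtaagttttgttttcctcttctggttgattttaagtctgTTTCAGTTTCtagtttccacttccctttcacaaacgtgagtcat
Ifi44l: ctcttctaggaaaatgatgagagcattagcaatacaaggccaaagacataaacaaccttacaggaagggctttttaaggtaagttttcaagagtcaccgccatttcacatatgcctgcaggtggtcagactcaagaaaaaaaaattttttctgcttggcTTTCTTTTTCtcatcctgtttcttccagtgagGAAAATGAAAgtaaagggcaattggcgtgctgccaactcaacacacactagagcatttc
Gbp5: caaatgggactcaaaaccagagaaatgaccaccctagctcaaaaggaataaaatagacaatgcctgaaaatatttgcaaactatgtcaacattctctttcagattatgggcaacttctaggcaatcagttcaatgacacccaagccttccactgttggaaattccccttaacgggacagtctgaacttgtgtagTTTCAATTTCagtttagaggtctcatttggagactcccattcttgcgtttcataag
Oas1a: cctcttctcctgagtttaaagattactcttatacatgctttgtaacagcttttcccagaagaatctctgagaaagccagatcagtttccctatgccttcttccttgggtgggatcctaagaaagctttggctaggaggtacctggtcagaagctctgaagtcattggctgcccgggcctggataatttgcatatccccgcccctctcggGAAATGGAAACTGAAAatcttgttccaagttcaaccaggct
Oas1b: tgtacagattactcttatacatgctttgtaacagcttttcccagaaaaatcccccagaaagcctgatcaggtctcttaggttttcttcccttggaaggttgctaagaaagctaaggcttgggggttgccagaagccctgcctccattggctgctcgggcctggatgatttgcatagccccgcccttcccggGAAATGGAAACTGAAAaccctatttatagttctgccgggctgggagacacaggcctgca
Igtp: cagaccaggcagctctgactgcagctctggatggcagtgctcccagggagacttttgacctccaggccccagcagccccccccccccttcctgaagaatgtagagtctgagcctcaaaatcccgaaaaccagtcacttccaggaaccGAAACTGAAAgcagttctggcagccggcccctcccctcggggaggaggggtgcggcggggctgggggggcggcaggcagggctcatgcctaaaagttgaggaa

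The core stood in 18 of the 30 member promoters (60.0%), against 902 of 27457 promoters in the table, taken as 1 for each gene name (3.29%). The gamma-activated core TTCNNNGAA, which reads the same on both strands, stood in 12 of the 30 (40.0%), against 7.52% of all. In Oas1a and Oas1b the capitals are a pair of cores that overlap by 4 bases, in the same letters in both, and a global alignment of these 2 promoters found 192 identical bases in 268 columns (71.6%). The nearest core began 44 bases before the start in Ifit3, 59 in Ifi44l, 56 in Gbp5, 35 in Oas1a, 53 in Oas1b and 103 in Igtp. A match of letters is a description of the sequence and not evidence that a factor was bound.

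Most of the members were higher in the aneurysm library, by modest amounts. Of 33 measured members 28 were higher and 5 lower, where 50.2% of all genes were higher by any amount, and the median difference was 0.34 log2 units, against 0.0010 over all genes. Differences are log2 aneurysm minus control. With 1 array in each group there is no spread between samples and hence no test across samples, so each value describes these 2 libraries. The value after ± is the spot error, which combines the scatter of repeat spots within each of the 2 arrays. That scatter is pooled over probes of like signal, so a probe with 1 spot has a spot error too. It leaves out variation between animals. In bulk tissue, fewer cells of a type and less RNA per cell cannot be told apart. At least 1.5-fold higher were 7 of the 33 members, where 4.25% of all genes were, and 0 members were at least 1.5-fold lower, where 8.43% of all genes were. No member reached 2-fold in either direction, where 0.882% of all genes were at least 2-fold higher and 3.91% at least 2-fold lower. The split of all genes at 1.5-fold depends on the scaling, with 506 higher and 1003 lower here, 1973 higher and 561 lower when arrays were scaled to the spike-in controls, 733 and 813 with loess centring, and 114 and 562 with normexp background correction.

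**Figure D1:**
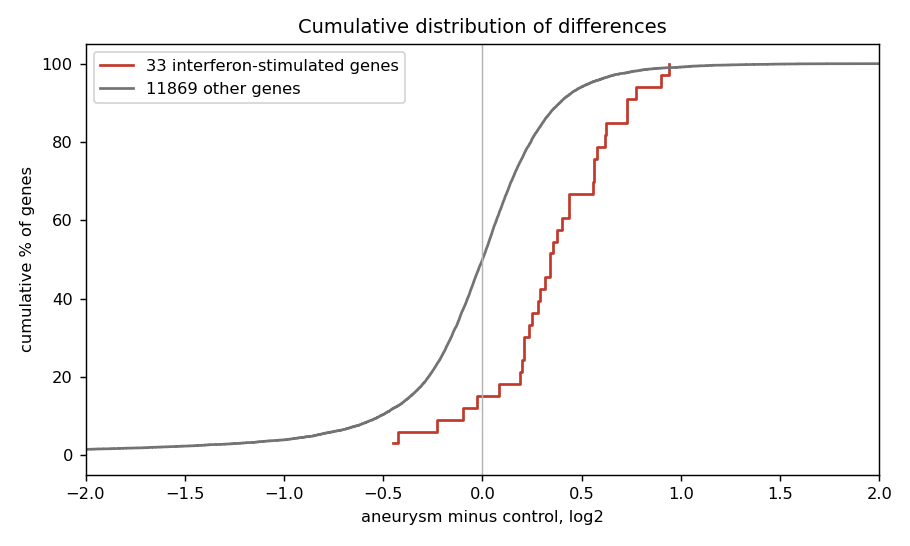
The plot gives the cumulative percentage of genes (vertical axis) at or below each log2 difference, aneurysm minus control (horizontal axis, shown from -2 to 2), for the 33 measured interferon-stimulated genes in red and the 11869 other genes in grey. The red curve lies to the right of the grey one over most of the range and ends at 0.94, while the grey tails reach beyond it on both sides.

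Markers of other tissues and cell types also differed between the libraries. Over all genes, 50.2% were higher by any amount and 3.91% at least 2-fold lower. All 9 measured hepatocyte markers were at least 2-fold lower in the aneurysm library (median -4.50), with a summed signal of 855% of the array's 75th percentile in the aneurysm library and 4404% in the control library. Of these sums Ttr, which the choroid plexus also makes, held 793% and 2119%, and the other 8 markers 61.9% and 2285%. Oligodendrocyte markers were lower in 7 of 8 (median -1.13, sums 8632% and 16861%) and pituitary markers in 5 of 5 (median -1.41, sums 242% and 1030%). Neuron markers were lower in 5 of 7 (median -0.23), from Tubb3 at -1.22 and Slc17a6 at -1.10 to Snap25 at -0.17. Of the others, Gad1 was at 0.17 and Slc17a7 had a bound of 0.66 ± 0.65. Macrophage markers were higher in 9 of 10 (median 0.24, sums 5250% and 4574%, Cd68 at -0.05), fibroblast markers in 5 of 6 (median 0.48, sums 16827% and 15531%) and T and NK cell markers in 6 of 8 (median 0.17, sums 123% and 107%, Gzmb at -1.40). Of the vessel wall's own cells, smooth muscle markers had a median of 0.12 (4 of 6 higher, Acta2 at -0.01) and endothelial markers one of 0.19 (3 of 5 higher). Not well above background on either array were the hepatocyte marker Tat, the pituitary marker Prl, the T and NK cell markers Cd2 and Klrd1 and the dendritic cell marker Tlr9. Markers of plasmacytoid dendritic cells, known for their interferon output, had a median of 0.10, with 3 of 5 higher, and 2 of 4 without Bst2, which is itself one of the interferon-stimulated genes. The part of these markers in the differences of the interferon-stimulated genes was not tested.

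**Figure D2:**
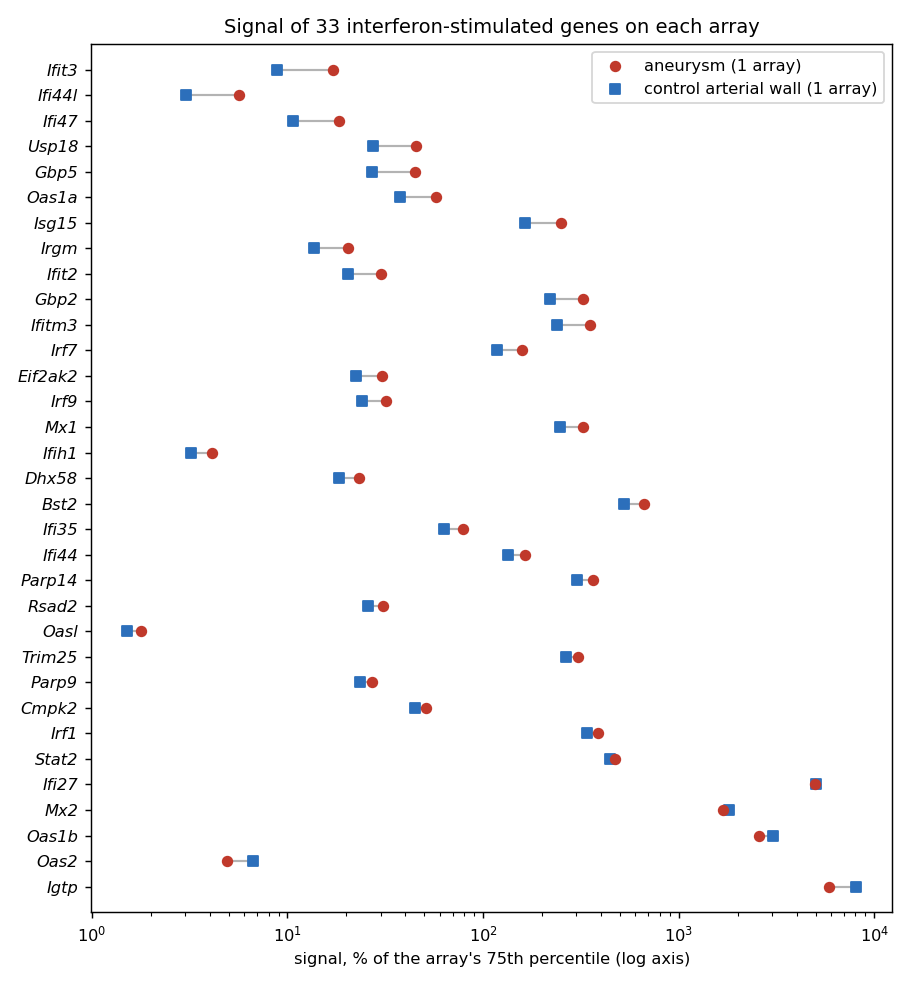
Each row is 1 interferon-stimulated gene, ordered by its difference, and the horizontal log axis gives its signal as a percentage of the array's 75th percentile, in red circles for the aneurysm library and blue squares for the control library. In the upper 28 rows the red circle lies to the right, and in the lower 5 to the left. Signals may be compared along a row but not between rows, because each probe has its own brightness.

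The transcription factors that carry the signal were all higher, none by 1.5-fold. Irf7, the factor that amplifies type I interferon production, was at 159% of the array's 75th percentile in the aneurysm library and 117% in the control library (difference 0.44 ± 0.06). Irf9, the DNA-binding part of the complex with Stat2, was at 31.8% and 24.0% (0.40 ± 0.13). The differences of Irf1, a factor induced by interferon gamma, and of Stat2 were smaller, at 0.19 ± 0.06 and 0.08 ± 0.06. A second probe of Irf1, with 1 spot on each array, gave 0.63 ± 0.28. None of the 4 changed sign under any of the 11 other ways of processing the arrays. Several of these left the values unchanged or could only raise them, so they could not have changed the sign.

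The measured RNA sensors had differences near 0.35, one of them within its spot error. Dhx58, the LGP2 helicase that tunes the other RIG-I-like receptors, was at 23.3% in the aneurysm library and 18.4% in the control library (0.34 ± 0.13). Ifih1, the MDA5 helicase that senses long double-stranded RNA, was at 4.12% and 3.22% (0.36 ± 0.48). Its spot error exceeds its difference, and with normexp it was at -0.09.

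Both measured members of the Ifit family, whose proteins bind viral RNA ends, were higher. Ifit3 had the highest difference of the 33 members as reported, although Ifi44l was above it with quantile normalization and loess centring, and with normexp it was at 0.50, below Isg15, Usp18 and Gbp5, among others. It was at 17.1% in the aneurysm library and 8.88% in the control library (0.94 ± 0.20, 1.92-fold). Both of its spots in the aneurysm library (16.6% and 17.5%) lay above both in the control library (8.4% and 9.4%). Among all measured probes with at least 2 spots on each array, 34.2% had every aneurysm spot above every control spot. Ifit2, its direct neighbour on the chromosome, was at 30.1% and 20.4% (0.56 ± 0.13). Ifit1, of the same cluster, was dim on both arrays and has no fold. Its signal was 0.41% in the aneurysm library and 0.58% in the control library.

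The oligoadenylate synthetase family, whose active members make the messenger that activates RNase L, ran both ways. Oas1a was at 57.7% in the aneurysm library and 37.4% in the control library (0.62 ± 0.09, 1.54-fold). Oas1b, which has 2 protein-coding genes between it and Oas1a, was lower, at 2583% and 3026% with 1 spot on each array (-0.23 ± 0.07), although it was at 0.07 with spike-in scaling. Oas2, a little further along, was at 4.93% and 6.63% (-0.43 ± 0.28), and stayed below 0 under each of the 11 other ways of processing. Several of these left its value unchanged. Oasl, which resembles the synthetases and in human cells boosts RIG-I, was at 1.78% and 1.52%. It was well above background in the aneurysm library only. Its value of 1.18-fold (0.23 ± 0.65) is a ratio to a dim signal and not a lower limit. The spots of Oasl overlapped between the arrays. Because Oas1 genes are close copies, a probe may take up RNA of more than 1 of them, and their values are uncertain as to gene.

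Eif2ak2, the kinase PKR that stops translation when it meets double-stranded RNA, was measured by 2 probes of opposite sign. The brighter probe had 10 spots on each array, from 27.4% to 33.8% (median 30.1%) in the aneurysm library and from 21.2% to 24.5% (median 22.3%) in the control library. The ranges did not overlap, with aneurysm spots above, as for 34.2% of all measured probes with at least 2 spots. The difference was 0.43 ± 0.06. The other probe, with 2 spots, was at 19.0% and 23.1% (-0.29 ± 0.13), so that the direction of Eif2ak2 rests on the probe taken, and the mean of both was 0.07.

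The members that act on nucleotides, Rsad2 and Cmpk2, were close to each other. Rsad2, or viperin, which makes a chain-terminating nucleotide, differed by 0.25 ± 0.13, and Cmpk2, a nucleotide kinase encoded next to it, by 0.20 ± 0.04. All 10 spots of Cmpk2 in the aneurysm library (48.7% to 53.9%, median 51.3%) lay above all 10 in the control library (40.5% to 46.6%, median 44.6%). Every aneurysm spot was likewise above on 34.2% of all measured probes with at least 2 spots on each array. The spots of 1 array share 1 RNA sample, so they bear on the reading of the array and not on the animals.

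Of the members that act on virus entry, uncoating and release, Ifitm3 had the highest difference. Ifitm3, a membrane protein that blocks fusion of viruses with endosomes, was at 350% in the aneurysm library and 238% in the control library (0.56 ± 0.06). Mx1, a GTPase that traps viral nucleoproteins, was at 322% and 248% (0.38 ± 0.06). Bst2, or tetherin, which holds budding virions at the cell surface, was at 667% and 527% with 1 spot on each array (0.34 ± 0.08). Mx2, which lies near Mx1, was at 1678% and 1797% (-0.10 ± 0.05), but at 0.20 with spike-in scaling.

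The Isg15 system, grouped with the ubiquitin ligase Trim25, had a median of 0.62 over 3 measured members, all higher. Isg15, the ubiquitin-like protein that is coupled to other proteins during the response, was at 251% in the aneurysm library and 164% in the control library (0.62 ± 0.06, 1.54-fold). Usp18, the protease that removes Isg15 and also shuts down the type I receptor, was at 45.5% and 27.5% (0.73 ± 0.13, 1.66-fold). A second probe of Usp18 gave 0.77 ± 0.18, and on both probes the spots of the aneurysm library lay above those of the control library. Every aneurysm spot was above every control spot on 34.2% of all measured probes with at least 2 spots. Trim25, a ubiquitin ligase that acts on RIG-I, differed by 0.21 ± 0.06.

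The GTPases known best as interferon gamma targets had a median of 0.58 over 5 members, with 4 higher. Ifi47, an immunity-related GTPase, was at 18.3% in the aneurysm library and 10.7% in the control library (0.78 ± 0.18, 1.71-fold). With normexp Ifi47 was at 0.43 on the processed and 0.30 on the median signal. Its neighbour Irgm, of the same family, was at 20.3% and 13.6% (0.58 ± 0.16). Gbp5, a guanylate-binding protein that promotes inflammasome assembly, had 10 spots on each array, from 42.6% to 47.2% (median 45.1%) in the aneurysm library and from 25.3% to 28.7% (median 27.3%) in the control library. These ranges did not overlap, with aneurysm spots above, as for 34.2% of all measured probes with at least 2 spots. The difference of Gbp5 was 0.73 ± 0.06 (1.66-fold). A second, dim probe of Gbp5 had overlapping spots (0.34 ± 0.50). Gbp2, encoded close by, was at 325% and 220% (0.56 ± 0.06).

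Igtp, a further immunity-related GTPase, gave opposite signs on its 2 probes. The bright probe, taken by the rule, was at 5890% in the aneurysm library and 8054% in the control library (-0.45 ± 0.05). The other probe, with 1 spot on each array, was at 35.0% and 22.8% (0.62 ± 0.18), and the mean of both was 0.08. The direction of Igtp is therefore not settled by these probes.

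The remaining induced genes were higher in 5 of 6 cases. Ifi44l, an antiviral protein of uncertain mechanism, was at 5.65% in the aneurysm library and 3.02% in the control library (0.90 ± 0.48, 1.87-fold). Its spot error is over 0.4, since dim spots vary more, and with normexp its difference was 0.14. Ifi44, the direct neighbour, Ifi35, Parp14 and Parp9 had differences from 0.21 to 0.32. Parp14, an ADP-ribosyltransferase, had a second probe at 0.04 ± 0.13, with overlapping spots. Ifi27 was at 4954% and 5047% (-0.03 ± 0.05), within its spot error, and above 0 with quantile normalization (0.13), loess centring (0.07), median centring (0.0036) and spike-in scaling (0.27).

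**Figure D3:**
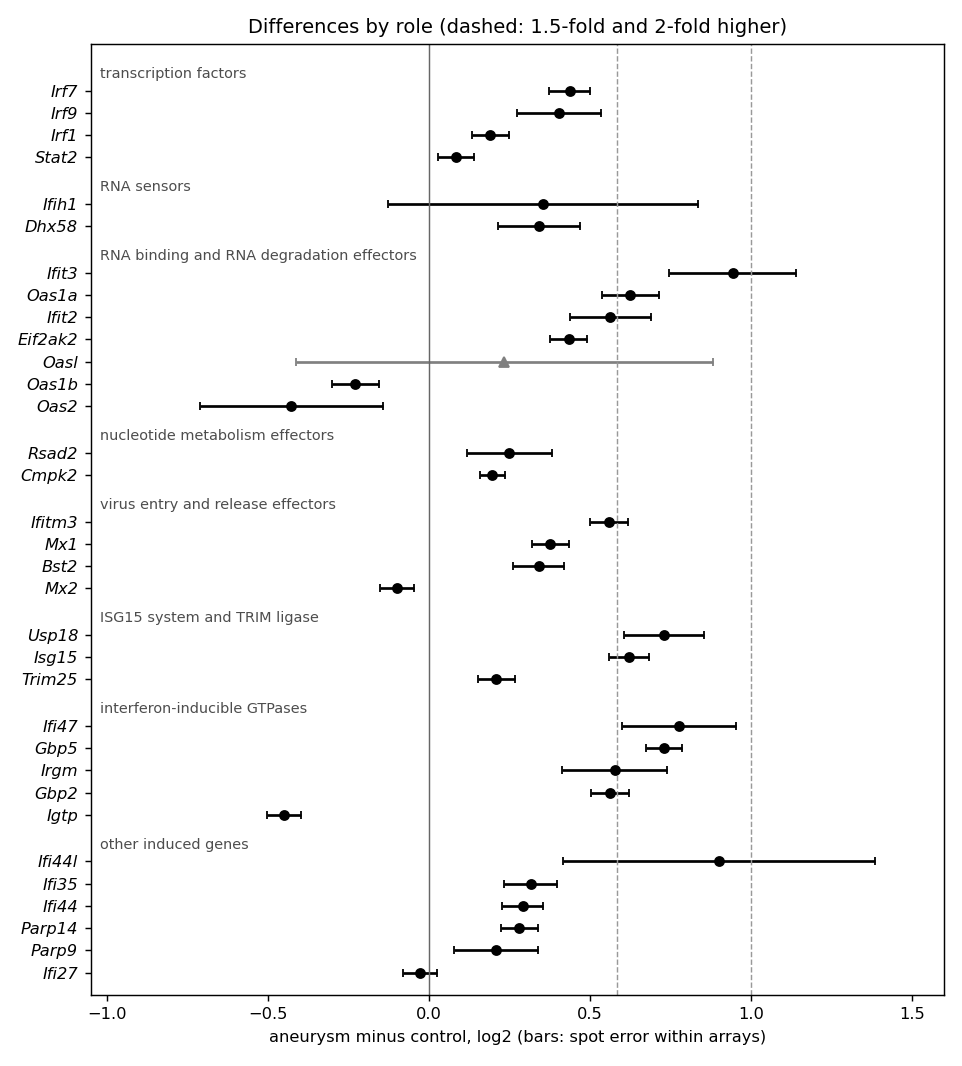
Points give the log2 difference, aneurysm minus control, of each measured interferon-stimulated gene, grouped by role, and bars give the spot error within arrays. The grey triangle is the bound of Oasl, the solid line marks no difference, and the dashed lines mark 1.5-fold and 2-fold. Of the points, 7 lie beyond the 1.5-fold line and 0 beyond the 2-fold line.

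Of 35 member probes with at least 2 spots on each array that were well above background, the spots of the aneurysm library lay above every spot of the control library for 27 (34.2% of all 11017 such probes), below for 5 (33% of all), and overlapped for 3. The 5 members with a lower signal were not spread evenly over brightness, since Igtp, Oas1b, Mx2 and Ifi27 were also the 4 brightest members. Among the 301 genes at least as bright as Mx2, a limit set after these values were seen, 30.6% were higher and the median was -0.07, with 0 at least 1.5-fold higher. With all genes split into 4 equal bins of signal, 3 of 4 members in the dimmest bin were higher (median 0.29), against 43.4% of its genes (median -0.08). Oasl, which could only count as higher, is among these 3. In the next bin 11 of 11 were higher (median 0.56), against 53.2% (0.02), and in the third 5 of 5 (0.32), against 55.9% (0.04). The brightest bin held the most members, of which 9 of 13 were higher (0.21), against 48.2% of its genes (-0.01).

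Members that sit side by side on the chromosome had like differences in some clusters and not in others. Cmpk2 and Rsad2, with no protein-coding gene between them, differed by 0.05 log2 units from each other, and Parp9 and Parp14, with 1 between them, by 0.07. The values of Ifi44 (0.29) and Ifi44l (0.90), with none between them, lay further apart, as did those of Mx1 and Mx2 (0.38 and -0.10) and of Oas1a and Oas1b (0.62 and -0.23). The 17 measured members with the response element core had a median of 0.43, with 14 higher, and the 10 measured members with a promoter but no core had one of 0.22, with all 10 higher. Outside the members, 243 genes with the core had a median of 0.06 and 58.4% were higher, against 0.0019 and 50.3% for 9434 genes without it. For the gamma-activated core, the 11 measured members with it had a median of 0.40, with 9 higher, and the 16 without it one of 0.30, with 15 higher. Outside the members, 597 genes with this core had a median of 0.0011 and 9080 genes without it one of 0.0040.

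Upstream of the members, 1 of 11 listed interferon ligands had a value. No probe was matched for 6 of them, and Ifng, Ifnb1, Ifna5 and Ifnk were not well above background on either array. Ifna4, the measured one, was at 9.94% in the aneurysm library and 12.0% in the control library (-0.27 ± 0.18, but 0.03 with spike-in scaling). The 4 measured receptor chains were higher (median 0.18), where 50.2% of all genes were higher by any amount. Of these Ifngr1, the ligand-binding chain for interferon gamma, was at 289% and 208% (0.48 ± 0.06), Ifnar1 differed by 0.25 ± 0.13, Il10rb by 0.11 and Ifngr2 by 0.03 (-0.0055 with loess centring and -0.01 with normexp on the median signal). In the signalling list Stat3 differed by 0.14, Jak2 by 0.05 and Jak1 by 0.03 (-0.0028 with loess centring and -0.01 with normexp on the median signal). Of these lists 0 genes reached 1.5-fold.

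Sensors and regulators were mixed. Of 8 measured sensors and adaptors 6 were higher (median 0.25), where 50.2% of all genes were higher by any amount. Of the 8, 2 were at least 1.5-fold higher, where 4.25% of all genes were. Tbk1 and Tlr8 were well above background in the aneurysm library only, so they could only count as higher. With normexp on the processed signal, which gave no value for Tbk1 and Tlr8, the median was 0.04. Tlr3, the endosomal receptor for double-stranded RNA, was at 73.1% in the aneurysm library and 47.1% in the control library (0.63 ± 0.09, and 0.55 with normexp). The kinase Tbk1 had a ratio of 1.73-fold to a dim control signal (0.79 ± 0.80, 1 spot on each array). Tlr7 differed by 0.54 ± 0.51 (-0.04 with normexp), and Tlr8, also dim in the control library, by 0.33 ± 0.79. Of the other interferon regulatory factors Irf3 was at -0.20 ± 0.05 (0.10 with spike-in scaling), Irf8 at 0.10 ± 0.41 (-0.16 with normexp) and Irf5 at 0.06 ± 0.09. The negative regulators had a median of 0.01 (5 of 9 higher, against 50.2% of all genes), and one of -0.09 with normexp. In this list Pias1 was at 0.47 ± 0.18 (0.01 with normexp on the processed and -0.09 on the median signal), Socs3, a feedback inhibitor of cytokine receptors, at -0.43 ± 0.14, Cish at -0.31 ± 0.21 and Trex1 at 0.24 ± 0.12.

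Other interferon-induced genes outside the members were also mostly higher, with smaller medians. Of 29 other antiviral genes 23 were higher (median 0.21), where 50.2% of all genes were higher by any amount. Of the 29, 2 were at least 1.5-fold higher and 2 at least 1.5-fold lower, where 4.25% and 8.43% of all genes were. Oas1i was at 26.7% in the aneurysm library and 12.5% in the control library (1.09 ± 0.23, 2.14-fold, 1 spot on each array), a value uncertain as to gene for the reason given for Oas1a. With normexp Oas1i was below 2-fold, at 0.72 on the processed and 0.61 on the median signal. Tlr3, listed here too, is given above, and the 2 lower genes, Trim14 (bound -1.20 ± 0.78) and Oas3 (bound -0.81 ± 0.85), rested on 1 spot on each array. Of 21 genes known best from interferon gamma 18 were higher (median 0.18), where 50.2% of all genes were higher by any amount. Of the 21, 5 were at least 1.5-fold higher, where 4.25% of all genes were. Among the 5 is Cd274, which was well above background in the aneurysm library only and so could only count as higher. Cxcl10 and Cxcl11, chemokines that draw T cells, differed by 0.75 ± 0.11 and 0.75 ± 0.19, and Gch1, which makes the cofactor of nitric oxide synthase, by 0.66 ± 0.25. Cd274, which encodes PD-L1, had a ratio of 1.90-fold to a dim control signal (0.93 ± 0.59) and no value with normexp. With normexp Cxcl10 was at 0.60, Cxcl11 at 0.37 and Gch1 at 0.24. Over all these lists together 59 of 76 measured genes were higher (median 0.15), where 50.2% of all genes were higher by any amount. At least 1.5-fold higher were 8, where 4.25% of all genes were. Tbk1 and Cd274, among the 8, and Tlr8 could only count as higher, and Trim14 and Oas3 only as lower.

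**Figure D4:**
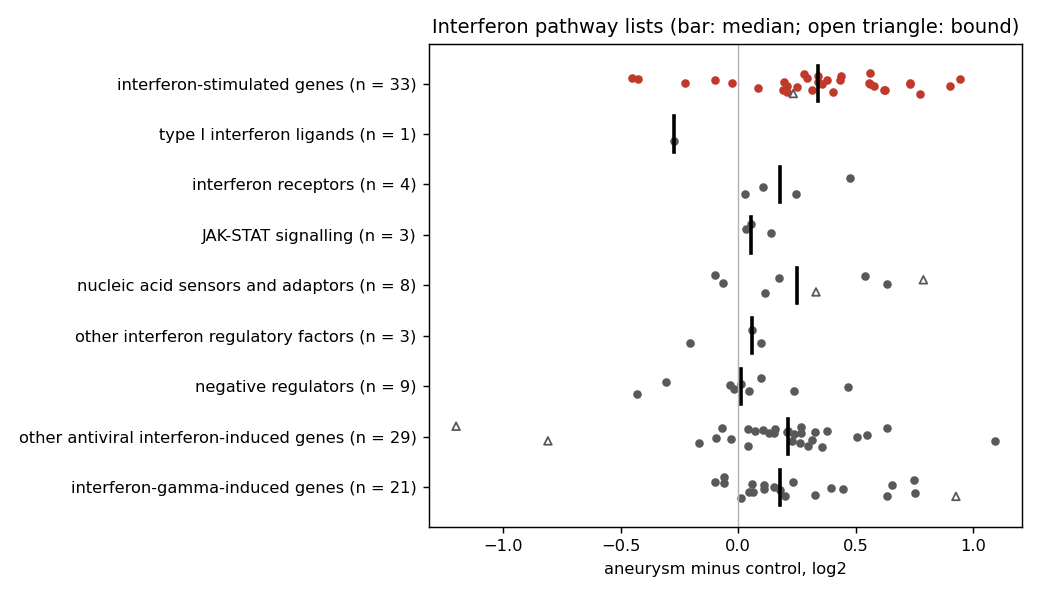
Each point is 1 measured gene of the named list, placed by its log2 difference, aneurysm minus control, with the 33 interferon-stimulated genes in red in the top row, bounds as open triangles and the median of each list as a black bar. Points are spread vertically within a row for legibility only. The bars lie between -0.27, for the single measured ligand, and 0.34, for the interferon-stimulated genes.

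The size of the members' differences depended on how the arrays were scaled and corrected, and their place relative to all genes did less so. With spike-in scaling the median of all genes moved to 0.30 and that of the members to 0.64. With normexp on the processed signal these medians were -0.06 and 0.28. In that setting 1 member was at least 1.5-fold higher (Isg15, at 0.61), where 0.985% of all genes were. The median of the members lay 0.33 to 0.39 log2 units above that of all genes in each of the 11 alternatives. Several of these could hardly have moved this gap, so they do not test it. Median centring and spike-in scaling shift all genes alike, and keeping outlier spots left the members' median unchanged. Among those that could move it, the gap was 0.34 with quantile normalization and 0.34 with loess centring. With normexp it was 0.34 on the processed and 0.33 on the median signal, against 0.34 as reported.

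**Figure D5:**
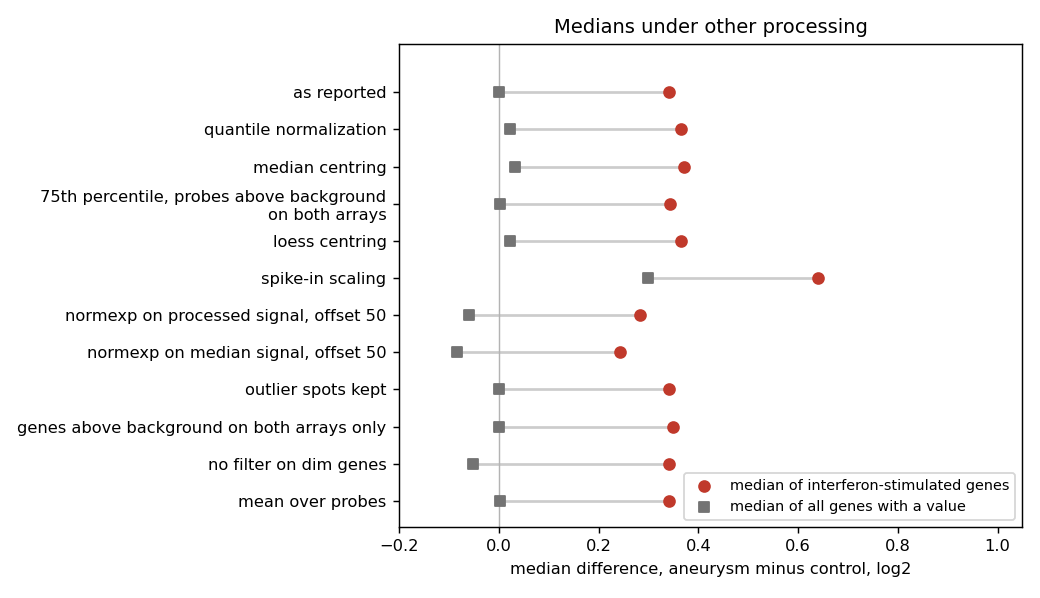
Each row is 1 way of processing the arrays, with the reported one on top. Red circles give the median log2 difference of the interferon-stimulated genes and grey squares that of all genes with a value. The circles run from 0.24 to 0.64, and in every row they lie to the right of the square. Scalings that shift all genes alike could hardly have changed the distance between circle and square.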

How the data were processed

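Each array's scanner output was used as deposited. Its processed spot intensities, on a linear scale, were made by the authors with Feature Extraction (version 10.10.1.1), per the file headers. Flags for outlier spots and for spots well above background were also recorded by the authors' software, per the file headers. Both arrays carry the same slide and scan entries. Samples were grouped by title. Log2 intensities were computed and scaled to the 75th percentile of all 58717 non-control spots (801 in the aneurysm, 621 in the control library), without outlier spots (573 and 484), and spots of a probe were averaged. A signal in percent is relative to that percentile. Of these spots 76.4% and 74.7% were well above background and 0 were saturated. Of 30367 probes, 18006 matched a gene by accession. A gene took its brightest probe among those well above background on either array. Where only 1 array was, the value is a bound that sets the bright signal against the dim one or the lowest signal well above background, whichever is higher (701 genes). For Oasl, Tbk1, Tlr8, Cd274, Trim14 and Oas3 the dim signal was the higher, so their values are plain ratios and not limits. A gene with a bound could only count in the direction of its bright array. Spot errors pool spot SDs in 20 bins of signal.

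Members and gene lists were chosen with earlier results of these data known. Named by rule were the 20 members with the largest absolute difference, those with a bound or with probes of opposite sign, and up to 4 genes of each other list; further members were named after their values were seen. A few genes of those other lists are not reported here, and the counts leave them out. Simulated arrays served to test the code. Alternatives were other scalings, normexp (offset 50), other filters, the mean over probes and outlier spots kept (Python 3.11.15, R 4.3.3, limma 3.58.1). Mean signals were not used, so normexp ran on the processed signal, and a run on the median signal was added after seeing the data.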

Additional observations from a re-analysis of the deposited data

How the results depend on the processing

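Under each of the 11 alternatives the median of the members stayed above 0 and the count of higher members stayed within 26 to 31. Over all genes 36.9% were higher with normexp on the median signal (26 members) and 81.9% with spike-in scaling (31 members). The median was 0.64 with spike-in scaling and 0.24 with normexp on the median signal. Members at least 1.5-fold higher numbered 11 with median centring, 20 with spike-in scaling, 1 with normexp on the processed signal and 0 with normexp on the median signal, against 7 as reported. The shares of all genes in these settings were 4.75%, 16.5%, 0.985% and 0.805%, against 4.25%. Members at least 2-fold higher numbered 2 with quantile normalization, 2 with loess centring and 5 with spike-in scaling, against 0. At 2-fold the shares of all genes were 1.38%, 1.41% and 2.55%, against 0.882%. Spike-in scaling (7 control probes) shifts all genes alike by 0.30. With normexp the median of all genes was -0.06 on the processed and -0.08 on the median signal, and the cause of the lower counts was not tested. Over all genes, 506 were at least 1.5-fold higher as reported, 1973 with spike-in scaling, 114 with normexp on the processed signal and 93 with normexp on the median signal. Of 30 members at least 1 spot error from 0, 26 were higher, but the share over all genes under this filter was not computed. Signal limits Oasl, Ifih1, Ifi44l and Oas2, which lay below 7% of the 75th percentile on both arrays. No paired analysis was possible because each group has 1 array, and no array could be left out.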
